A study of Danio rerio with 9 samples.

Results

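Haploid zebrafish embryos were compared with diploid embryos at 3 hours after fertilization, with 3 RNA sequencing libraries of each. Every locus was taken whose FPKM averaged at least 1 over these 6 libraries, which gave 5930 of the 30702 loci in each library table. Of these, 4 had a failed status in a library and 5926 were tested. FPKM is the number of fragments per kilobase of transcript and per 1e+06 mapped fragments, so it states each RNA as a share of its library. Both groups came from TJH females crossed with Tu males, and the labels give the same 3-hour stage to both. The haploid embryos were made by a published procedure that the labels cite, and the labels do not say which parent's genome they kept. Diploid embryos were the controls in a study on how cell size bears on gastrulation, for which tetraploid embryos were sequenced as well. The labels give neither the number of embryos in a library nor whether haploid and diploid libraries shared a clutch.

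A zebrafish egg is loaded with messenger RNA that runs the first cleavages while the embryo's own genome is almost silent. Around the mid-blastula transition the cell cycle lengthens, zygotic transcription begins, and maternal messages start to be cleared. The ratio of DNA to cytoplasm is one of the properties linked to the time of this switch. Haploid embryos carry a single set of chromosomes per nucleus where diploid embryos carry a pair, and at this stage most of the RNA in either is still maternal.

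No single locus passed the test between haploid and diploid embryos. In a limma fit of the 6 libraries, 0 of the 5926 loci (0%) passed a Benjamini-Hochberg adjusted p of 0.05, and the smallest adjusted p was 0.964. At an unadjusted limma p of 0.05 there were 153 loci, 55 of them higher and 98 lower in haploids, where 296 would be counted with no difference anywhere. All 3 haploid values lay above all 3 diploid values at 260 loci (4.39%), and below all of them at 239 loci (4.03%). With the FPKM as deposited, without scaling, this split was 199 above and 278 below. With FPKM rescaled over nuclear loci it was 339 above and 171 below, so the larger side depended on the scaling.

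Differences were small for nearly all loci. The log2 difference, haploid minus diploid, was taken on log2(scaled FPKM + 1), a scale that understates the difference at low levels. Its median was −0.01, and 2865 loci had a positive and 3061 a negative value. It lay within 0.25 for 4529 loci (76.4%), within 0.5 for 5612 (94.7%) and within 1 for 5873 (99.1%). Beyond these were 15 loci at 1 or more and 38 at −1 or less. Of the 15, 12 had a mean below 10 scaled FPKM and 11 were listed at 0 in at least 1 library. Of the 38, 30 had a mean below 10, 15 were listed at 0 in a library, and 9 belonged to the lists of early zygotic or stress genes described below.

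**Figure D1:**
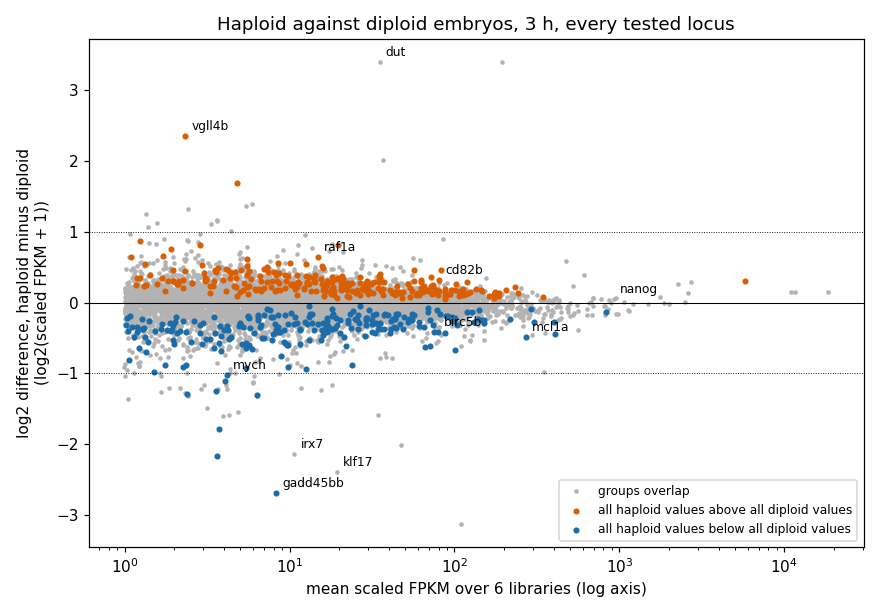
Each point is one of the 5926 tested loci, with its mean scaled FPKM over the 6 libraries on a log x axis and its log2 difference, haploid minus diploid, on the y axis. Orange points are the 260 loci with all haploid values above all diploid values and blue points the 239 with all below; dotted lines mark differences of 1 and −1, and the largest differences sit mostly at low levels.

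The 95% intervals show what size of difference these 6 libraries could have missed. On the log2 scale used, −1 stands for more than a halving of the RNA's share, the more so at low levels. At the 3213 loci with a mean of at least 10 scaled FPKM, the interval lay wholly above −1 for 3069 loci (95.5%). It lay inside −1 to 1 for 3010 loci (93.7%) and inside −0.5 to 0.5 for 1892 loci (58.9%). The interval reached −1 for 144 loci and lay wholly below it for 0. The median half-width of the interval was 0.33 at these loci and 0.44 over all loci tested. Because FPKM is a share, these limits concern each RNA relative to the rest. A change in total RNA per embryo, fewer cells of a type and less RNA per cell cannot be told apart in these libraries.

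**Figure D2:**
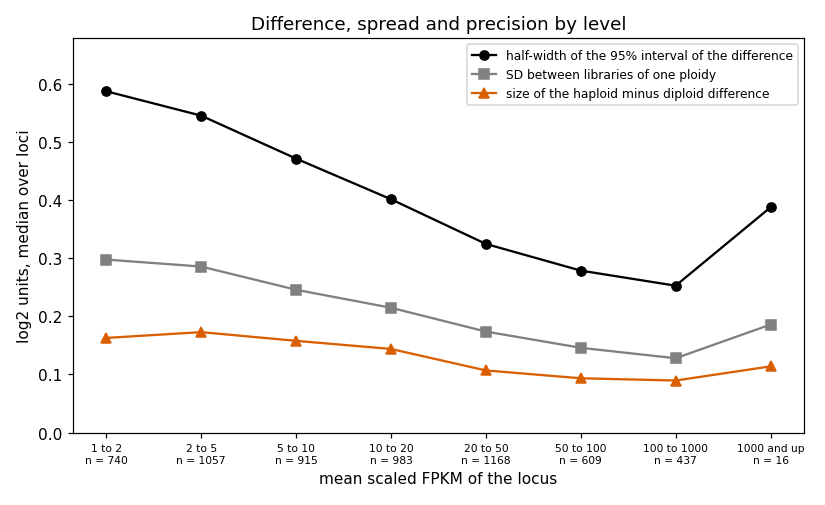
Medians over loci, in log2 units, are plotted for 8 bins of mean scaled FPKM, with the number of loci under each bin; black circles give the half-width of the 95% interval, grey squares the SD between libraries of one ploidy, and orange triangles the size of the difference. The half-width was 0.588 in the lowest bin and 0.253 from 100 to 1000 scaled FPKM, and the top bin holds only 16 loci. In every bin the typical difference was smaller than the SD between libraries. A difference between group means tends to fall below the SD of single libraries even without an effect. Their order therefore does not show that the ploidies are alike.

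Correlations between libraries of different ploidy overlapped those within each ploidy. Pearson correlations of log2 values across loci, which are not independent replicates, were 0.9501 to 0.9696 for haploid pairs, 0.9665 to 0.971 for diploid pairs and 0.9528 to 0.9849 between the ploidies. Haploid replicate 2 stood apart: it differed by 1 or more from the median of the other 5 libraries at 274 loci, against 80 to 178 for the others, and on the first principal component, which held 32.3% of the variance, it scored −30.39 where the others scored −1.14 to 12.87. Mitochondrial loci took 20.95%, 26.75% and 19.48% of summed FPKM in haploid replicates 1 to 3, against 19.62%, 21.62% and 18.23% in the diploid replicates. The typical SD between replicates was 0.208 in haploids and 0.179 in diploids on the log2 scale. Of the listed loci, 15537 belong to a second run of locus numbers in which at most 0.98% of loci on any chromosome reached an FPKM of 1. These genes are treated as unmeasured, not as silent. Leaving them aside, each gene list below could be followed only in part.

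Genes transcribed early from the zygotic genome had the lowest median of the 29 lists with at least 5 tested members. The list names 85 loci in the files. Only 18 of them were tested, and 50 of the rest are among the unmeasured genes of the second run. The median log2 difference was −0.64, against −0.01 over all loci, and 17 of the 18 values were negative. Some members, among them wnt11, klf2b and noto, averaged at least 1 only with diploid replicate 1, their highest library, included. For these the filter itself favoured a negative value, so the median and the count of signs are no support for a difference. None of the 18 passed the test, and 1 of them (5.56%) had haploid values all below the diploid values, against 4.03% of all loci. For 12 of the 18 the interval extended to −1 or lower, and the median half-width over the list was 1.198. At these levels a halving is a smaller step than −1 on this scale, so it lay within reach of at least these 12 intervals.

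The transcription factor klf17, on chromosome 2 from 33343304 to 33345470 in GRCz10, is among the genes switched on first. It had 18.8, 0.994 and 1.93 scaled FPKM in haploid libraries, against 61.6, 10.6 and 22.3 in diploid libraries. Haploid replicate 1 lay above diploid replicate 2, so the groups overlap. The log2 difference was −2.40 ± 0.94 (SE), with a 95% interval of −4.61 to −0.19 and a limma adjusted p of 0.964.

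irx7, an Iroquois homeobox gene on chromosome 23 from 37884208 to 37885532, had the same order of libraries within each ploidy. Its scaled FPKM was 10.4, 0.182 and 0.566 in haploids, against 41.1, 3.46 and 8.58 in diploids, a log2 difference of −2.14 ± 1.06 (SE), or −1.24 without diploid replicate 1. mxtx2, a homeobox gene that works in the yolk syncytial layer, had 2.77, 0 and 0.501 in haploids against 10.9, 1.52 and 3.12 in diploids. In each of the 3 genes, haploid replicate 1 was the highest haploid library and diploid replicate 1 the highest diploid library.

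Many members of the list had the same highest libraries. Diploid replicate 1 was the highest of the 6 libraries for 14 of the 18 genes, against 790 of all 5926 loci. Haploid replicate 1 was the highest haploid library for 14, against 1948 of all loci. These counts include wnt11, klf2b and noto, for which the filter itself favoured a high diploid replicate 1. They are therefore no support for a pattern in that library. The hairy-related repressor gene her5 had 7.73, 1.18 and 0.322 in haploids against 20.8, 1.05 and 4.79 in diploids. The zinc finger gene blf had 7.28, 2.88 and 3.39 against 27.7, 5.08 and 5.63, and wnt11, a ligand of convergent extension, had 1.01, 0.0828 and 0.342 against 3.97, 0.55 and 1.40. The apelin receptor gene aplnrb had 9.71, 0.0375 and 0.533 in haploids against 10.7, 0.479 and 1.20 in diploids, so replicate 1 of each ploidy was close. klf2b and the notochord homeobox gene noto also stood above 1 only in replicate 1 of each ploidy.

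The most abundant gene of this list had one of its smallest differences, −0.11. It was otx1b, a homeobox gene, which had 130.4, 114.1 and 121.9 scaled FPKM in haploids against 135.2, 124.2 and 136.1 in diploids. The Nodal ligand gene ndr1 had 1.71, 0.743 and 1.12 against 2.19, 0.909 and 1.70. A locus shared by wnt8a and a second annotated gene, whose reads cannot be assigned to one of them, was the only one without overlap, at 9.18, 10.3 and 10.2 in haploids against 11.2, 13.4 and 12.2 in diploids, a log2 difference of −0.28 and a limma adjusted p of 0.964.

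The median of this list moved with single libraries and with the treatment of low values. Leaving out diploid replicate 1 gave −0.26 and leaving out haploid replicate 2 gave −0.38, while leaving out haploid replicate 1 gave −1.04 and leaving out diploid replicate 2 gave −1.14. It was −0.28 with a pseudocount of 5 and −1.08 with one of 0.1. With no filter on the mean it was −0.21, and a filter at 5 gave −1.01. FPKM as deposited, without scaling, gave −0.64. Rescaling FPKM to a common sum, which raised the values against the same pseudocount of 1, gave −0.93 over all loci and −0.94 over nuclear loci. Within sets of consecutive library numbers, which the labels do not describe as batches, it was −1.285, −0.254 and −0.715, with 17, 14 and 16 of 18 values negative. For klf17, the same within-set differences were −1.662, −2.543 and −2.988, and for irx7 they were −1.887, −1.917 and −2.614. Without the sets as a block, the unadjusted limma p was 0.0371 for klf17 and 0.0819 for irx7. With them as a block it was 0.000412 and 0.000218, at adjusted p of 0.802 and 0.645.

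**Figure D3:**
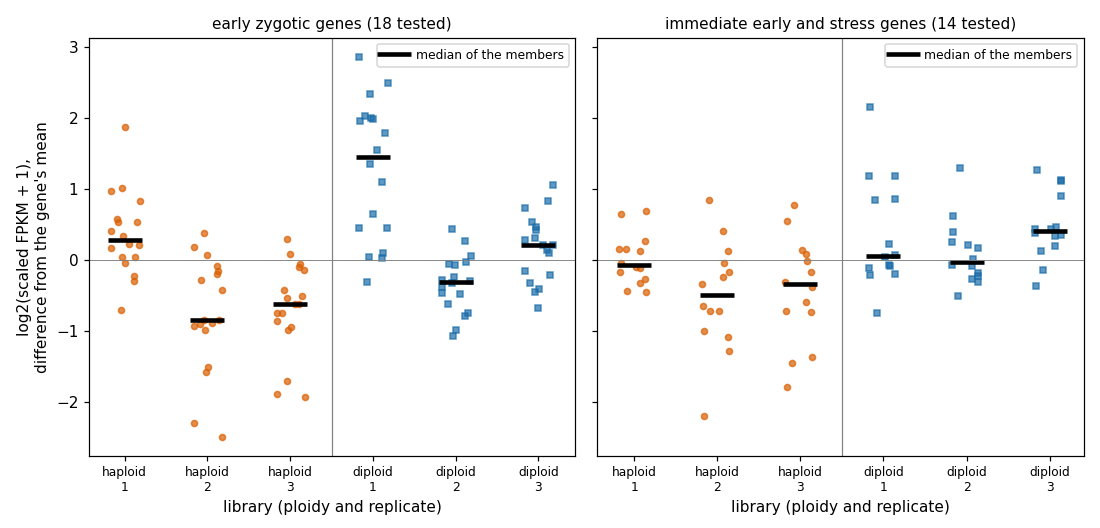
Each point is one gene in one library, as its log2(scaled FPKM + 1) minus the gene's mean over the 6 libraries; haploid libraries are orange and on the left of each panel, diploid libraries blue and on the right, and black bars are medians of the 18 early zygotic or 14 stress genes. For the early zygotic genes the medians were 0.284, −0.846 and −0.619 in haploids and 1.45, −0.311 and 0.21 in diploids, so haploid replicate 1 sat above diploid replicates 2 and 3.

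Immediate early and stress genes, some of which cells induce soon after a stimulus or DNA damage, were the list with the next lowest median, at −0.33. Of its 14 tested members, 13 were negative, against 3061 of all 5926 loci. One of them, ier5, averaged 0.77 in haploids and 2.53 in diploids, so it met the filter only through the diploids. The filter favoured a negative value there, and the count of signs is no support for a difference. The median was −0.30 to −0.52 with any one library left out, −0.24 with a pseudocount of 5, −0.43 with one of 0.1, and −0.14 with no filter on the mean. None of the 14 passed the test, and 2 (14.3%) had all haploid values below all diploid values, against 4.03% of all loci. One was gadd45bb, a growth arrest and DNA damage inducible gene on chromosome 2 from 36957292 to 36959531. It had 4.47, 0.233 and 0.636 scaled FPKM in haploids, against 24.2, 7.70 and 12.5 in diploids. The highest haploid value was below the lowest diploid value, and the mean was 1.78 ± 2.34 in haploids and 14.8 ± 8.50 in diploids (SD, n = 3 each). The log2 difference was −2.69 ± 0.61 (SE), with an interval of −4.13 to −1.25 and a limma adjusted p of 0.964. Its size depended on the pseudocount, at −1.51 with 5 and −3.69 with 0.1.

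The other was the Myc family gene mych, with 3.12, 1.96 and 1.80 scaled FPKM in haploids against 9.48, 3.38 and 5.27 in diploids, a log2 difference of −1.03 ± 0.34 (SE) and a limma adjusted p of 0.964. The gadd45bb paralog gadd45ba had 3.32, 0.103 and 0.0417 in haploids against 5.09, 1.16 and 4.84 in diploids, and ier5 had 1.81, 0.101 and 0.401 against 3.24, 0.995 and 3.36. In all 4 genes haploid replicate 1 was the highest haploid library, and the groups overlapped for gadd45ba and ier5. Over the 14 tested members it was the highest haploid library for 7. Diploid replicate 3 was the highest of the 6 libraries for 7 of the 14, and diploid replicate 1 for 4. The endoplasmic reticulum chaperone gene hspa5 had 296.3, 230.6 and 288.4 in haploids against 260.6, 257.7 and 312.2 in diploids. The glutathione-degrading enzyme gene chac1 had 115.9, 75.5 and 138.0 in haploids against 128.6, 144.0 and 169.2 in diploids. atf4a, a transcription factor of the integrated stress response, was the one member with a positive difference, 0.13, which was −0.17 without haploid replicate 1, −0.12 without haploid replicate 3 and −0.03 without diploid replicate 3.

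Oocyte transcripts had small differences. Of 26 tested maternal genes, 19 were negative with a median of −0.05, and the differences ran from −0.34 to 0.21. The pluripotency factor gene nanog, one of the maternal activators of the zygotic genome, had 919.1, 983.9 and 921.4 scaled FPKM in haploids against 865.7, 880.5 and 981.8 in diploids. Its interval, −0.17 to 0.27, did not reach −1. buc, which organizes the Balbiani body of the oocyte, had 389.5, 353.6 and 376.8 in haploids against 385.2, 356.0 and 368.5 in diploids. The B-type cyclin gene ccnb2 had 1428, 1495 and 1536 against 1351, 1603 and 1561. The 1 member whose groups did not overlap (3.85%, against 4.03% of all loci that were lower in this way) was npm2a, coding for a histone chaperone of the egg, with 41.8, 32.5 and 39.2 in haploids against 52.8, 47.6 and 43.7 in diploids, a log2 difference of −0.34 and a limma adjusted p of 0.964. The germ plasm genes ddx4 and tdrd7a had intervals of −0.14 to 0.31 and −0.25 to 0.17.

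Regulators of maternal message stability and translation showed no common direction. Of 35 tested, 18 were positive, and the median was 0.00. In 4 of them (11.4%) all haploid values lay above all diploid values, against 4.39% of all loci. Among them were g3bp2, a stress granule gene, and xrn1, coding for a 5′ to 3′ exonuclease of messenger RNA, with differences of 0.19 and 0.26. In 1 of them, ythdf3, which reads a methyl mark on RNA, all lay below, with −0.17.

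Differences of cell cycle genes were small and ran in both directions. Of 66 tested replication and checkpoint genes, 34 were positive with a median of 0.01. The replicative helicase subunit gene mcm5 had 83.7, 74.7 and 82.0 scaled FPKM in haploids against 67.5, 66.3 and 68.6 in diploids. Its groups did not overlap, and the difference of 0.24 ± 0.09 (SE) had a limma adjusted p of 0.964. The checkpoint kinase gene chek1, which slows the cycle at the mid-blastula transition, had 30.8, 26.8 and 30.5 in haploids against 31.1, 32.0 and 30.1 in diploids. The nucleotide-pool enzyme gene dut had a difference of 3.40 in this list, but its locus of 101 bases on chromosome 18 had 27.6, 55.0 and 54.3 in haploids against 74.2, 0 and 0 in diploids, so 1 diploid library was the highest of all. Without diploid replicate 1 it was the only locus called, with a limma adjusted p of 0.0133 against libraries listed at 0.

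Of 64 tested genes of mitosis and chromosome segregation, 43 were negative with a median of −0.08. All haploid values were below all diploid values in 9 of them (14.1%) and above in 2 (3.12%), against 4.03% and 4.39% of all loci, and none passed the test. birc5b, which codes for the survivin subunit of the chromosomal passenger complex, had 64.7, 64.9 and 73.0 scaled FPKM in haploids against 86.9, 98.0 and 86.8 in diploids. Its difference was −0.42 ± 0.10 (SE), with an interval of −0.65 to −0.19 and a limma adjusted p of 0.964. The kinesin gene kif20ba was the lowest of the 9, with 40.8, 96.2 and 107.7 in haploids against 112.9, 139.5 and 108.6 in diploids. Its difference of −0.66 was −0.23 without haploid replicate 1. The authors' FPKM pooled by ploidy gave kif20ba 224.5 in haploids against 241.3 in diploids, and under their second pooling 234.7 against 223.4. The others were ccnb3, nek8, cenpe, mis18a, ncapg2, zwilch and cenpn, with differences of −0.57 to −0.11, and the 2 were the cohesin release gene waplb and the condensin gene ncaph, at 0.15 and 0.27. The median was nearer 0 in the third library set than in the others, at −0.044, −0.102 and 0.002.

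Spindle and centrosome genes were tested for 50 loci, 33 of them negative, with a median of −0.04. All haploid values were above all diploid values in 3 of them (6%) and below in 2 (4%), against 4.39% and 4.03% of all loci. The 2 were katnal1 and haus4, at −0.682 and −0.435. The centrosomal gene cep41 had 11.6, 8.81 and 10.4 in haploids against 8.16, 5.41 and 6.45 in diploids, without overlap, a difference of 0.56 ± 0.19 (SE). The median of 35 nuclear pore, import and lamina genes, relevant to nuclei that hold less DNA, was −0.01, and their differences ran from −0.27 to 0.37. The highest was sun1, which anchors the cytoskeleton at the inner nuclear membrane, with 19.9, 22.5 and 18.9 against 16.0, 13.7 and 17.1. For cep41 and sun1 the limma adjusted p was 0.964.

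Genes of the p53 pathway and apoptosis had a median of −0.07 over 34 tested loci, with 20 negative. Haploid values were all below diploid values in 5 of them (14.7%) and all above in 2 (5.88%), against 4.03% and 4.39% of all loci. The 5 do not act in one direction on cell death. mcl1a, an anti-apoptotic Bcl-2 family gene, had 229.5, 200.1 and 245.5 scaled FPKM in haploids against 307.4, 364.3 and 279.0 in diploids, a difference of −0.49 ± 0.13 (SE) with a limma adjusted p of 0.964. tnfsf10l4, coding for a death ligand of the TRAIL type, had 4.03, 3.71 and 5.46 against 7.18, 8.07 and 7.12, a difference of −0.66 ± 0.18 (SE). gadd45bb and birc5b, given above, and pdcd10b, at −0.38, were the remaining 3.

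Chromatin genes had a median of −0.01. Of 90 tested modifier and remodeller genes, 9 (10%) had all haploid values above all diploid values and 2 (2.22%) all below, against 4.39% and 4.03% of all loci. The 9 were atrx, setd2, brd2b, suv420h1, kmt2ba, hdac1, cbx1a, phc2b and mta2, with differences of 0.08 to 0.37. The helicase gene ruvbl2 was the lowest of the list at −0.62, with 55.6, 32.5 and 73.4 scaled FPKM in haploids against 83.2, 75.4 and 78.4 in diploids. It was −0.30 without haploid replicate 2. Of 4 histone loci tested, hist2h3c and h2afva (50%, against 4.03% of all loci) had all haploid values below all diploid values. Diploid replicate 2 was the highest of the 6 libraries for all 4 histone loci. hist2h3c, coding for a histone H3, had 2.02, 1.28 and 2.31 in haploids against 3.22, 3.91 and 2.44 in diploids, a difference of −0.55 ± 0.23 (SE) with a limma adjusted p of 0.964. For the variants h3f3d, h2afva and h2afvb the differences were 0.01, −0.13 and −0.04. None of these passed the test.

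Ribosomal protein genes of the cytosol were negative for 39 of 42 loci, with a median of −0.27, yet in none did the groups separate. Diploid replicate 2 was the highest of the 6 libraries for 37 of the 42, and leaving it out gave a median of −0.02. Leaving out haploid replicate 2 gave −0.14, and leaving out haploid replicate 1 gave −0.41. Within the library sets the medians were 0.119, −0.877 and 0.043. rpl10a, the lowest, had 102.0, 60.4 and 87.9 scaled FPKM in haploids against 107.6, 208.5 and 87.8 in diploids, a difference of −0.62, which was −0.25 without diploid replicate 2. Leaving out haploid replicate 2 in its place gave −0.40. rps2, the highest, had 138.9, 115.3 and 87.5 against 86.4, 127.9 and 92.4, and its difference of 0.15 was −0.01 without haploid replicate 1.

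With all 6 libraries, medians were negative for nuclear genes of mitochondrial proteins and positive for genes encoded in the mitochondrion. That contrast did not hold without haploid replicate 2. The median was −0.13 for 47 nuclear genes of oxidative phosphorylation and −0.12 for 33 mitochondrial ribosomal protein genes. Without haploid replicate 2 these were −0.02 and 0.02. Leaving out diploid replicate 2 gave −0.05 for the first, and leaving out haploid replicate 1 gave −0.26 for the second. All 9 tested loci of protein genes encoded in the mitochondrion were positive, with a median of 0.16. This was −0.05 without haploid replicate 2, the highest library for 7 of the 9, and 0.13 to 0.36 with another library left out. The cytochrome b gene mt-cyb was the 1 locus without overlap (11.1%, against 4.39% of all loci that were higher in this way), with 5931, 7735 and 5662 scaled FPKM in haploids against 4769, 5438 and 5239 in diploids, a difference of 0.31 ± 0.16 (SE). Among the nuclear genes, mrpl41, of the large mitochondrial ribosomal subunit, had 3.96, 4.12 and 4.42 in haploids against 6.91, 6.31 and 6.87 in diploids. The cytochrome oxidase assembly gene coa3b had 4.16, 4.14 and 3.66 against 5.24, 8.16 and 7.18. The differences of mrpl41 and coa3b were −0.58 ± 0.15 and −0.64 ± 0.19 (SE), and all 3 had a limma adjusted p of 0.964.

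The other lists with at least 5 tested members had medians between −0.10 and 0.06. Heat shock and chaperone genes had a median of −0.04 over 41 loci, and the 4 without overlap (9.76%, against 4.03% of all loci), all lower in haploids, were hspbp1, tcp1, hspa14 and hsp90ab1, at −0.49 to −0.28. Spliceosome genes had a median of −0.01 over 90 loci, zinc finger genes 0.02 over 104, membrane traffic genes 0.00 over 152 and solute carrier genes 0.06 over 93. Signalling genes of the Wnt, Nodal, BMP, FGF and chemokine pathways had −0.01 over 32. Cell adhesion and gastrulation movement genes, the processes the study is about, had 0.03 over 52. Of these, cd82b, jupa and dscama were higher in haploids without overlap (5.77%, near the 4.39% of all loci). None was lower in this way, against 4.03% of all loci. dscama averaged 1.575 scaled FPKM in haploids and 0.60 in diploids, so it met the filter only through the haploids. None of the 33 lists held a locus that passed the test.

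**Figure D4:**
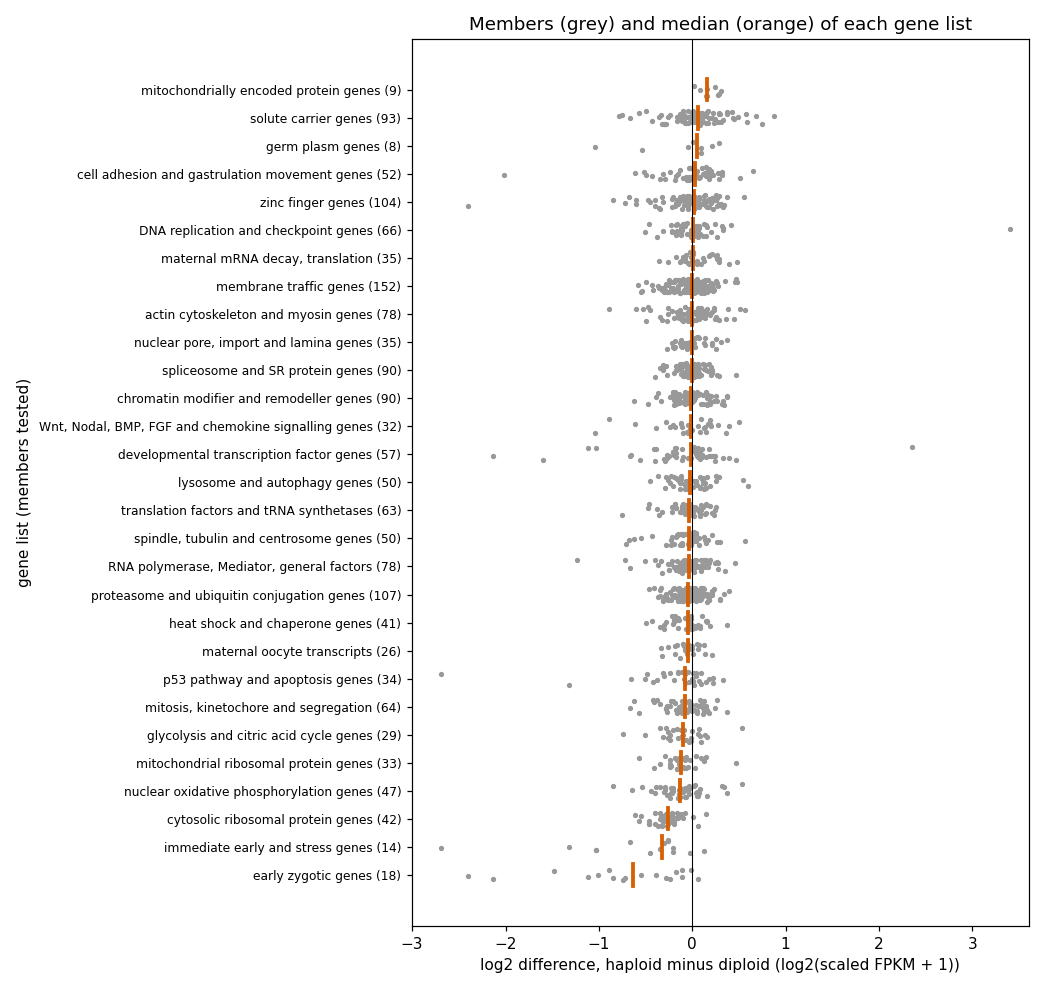
Grey points are the log2 differences, haploid minus diploid, of the tested members of the 29 lists with at least 5 tested members, and the orange bar is the list's median; the number tested follows each name. Early zygotic genes, at −0.64, stress genes, at −0.33, and cytosolic ribosomal protein genes, at −0.27, had the lowest medians, and 23 of the medians lay between −0.10 and 0.06.

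The loci with the smallest p whose groups did not overlap were named by rule, 12 in each direction, though none passed. Among the 12 higher in haploids, the tetraspanin gene cd82b had 93.2, 92.3 and 84.4 scaled FPKM in haploids against 73.4, 67.5 and 74.2 in diploids. Its difference of 0.32 ± 0.09 (SE) had an interval of 0.11 to 0.53. The kinase gene raf1a had 16.0, 20.7 and 17.7 against 10.9, 14.5 and 8.73, and sall4, a zinc finger gene of pluripotent cells, had 94.1, 111.2 and 81.1 against 79.2, 56.2 and 72.8. The other loci of the 12, apart from vgll4b, were DHX35, ccpg1, cep41, gpr137c, AREL1, got1, mcm5 and sun1, with differences of 0.24 to 0.65.

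vgll4b, a cofactor of TEAD transcription factors, was the 1 locus at 0 in all diploid libraries and at 1 or more in all haploid libraries. The locus, on chromosome 11 from 743125 to 745961, had 7.18, 5.16 and 1.62 scaled FPKM in haploids and was listed at 0 in all 3 diploid libraries. Its log2 difference was 2.35, but 0.90 with a pseudocount of 5 and 5.34 with one of 0.1. It was 3.95 and 4.29 after rescaling to a common sum over all and over nuclear loci, which raised the values against the pseudocount of 1. A second locus with the same symbol, from 780611 to 937615, had 5.54, 7.32 and 5.88 in haploids against 6.00, 4.55 and 4.87 in diploids, so the groups overlapped there. No locus was at 0 in all haploid libraries and at 1 or more in all diploid libraries.

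Of the 12 lower in haploids, gadd45bb, birc5b, mcl1a, tnfsf10l4, mrpl41 and coa3b are given above. The cathepsin gene ctss2.1 had 287.9, 357.8 and 382.7 scaled FPKM in haploids against 463.8, 424.3 and 510.4 in diploids, a difference of −0.45 ± 0.13 (SE). bbip1, coding for a component of the BBSome of cilia, had 4.48, 2.18 and 3.88 against 8.10, 7.86 and 6.07, a difference of −0.92 ± 0.24 (SE). The tissue factor gene f3b, the RNA-binding gene msi2a, znf989 and skap2 had differences of −0.59 to −0.45. Apart from gadd45bb and bbip1, the differences of the 12 lay between −0.66 and −0.42, and the limma adjusted p was 0.964 throughout.

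**Figure D5:**
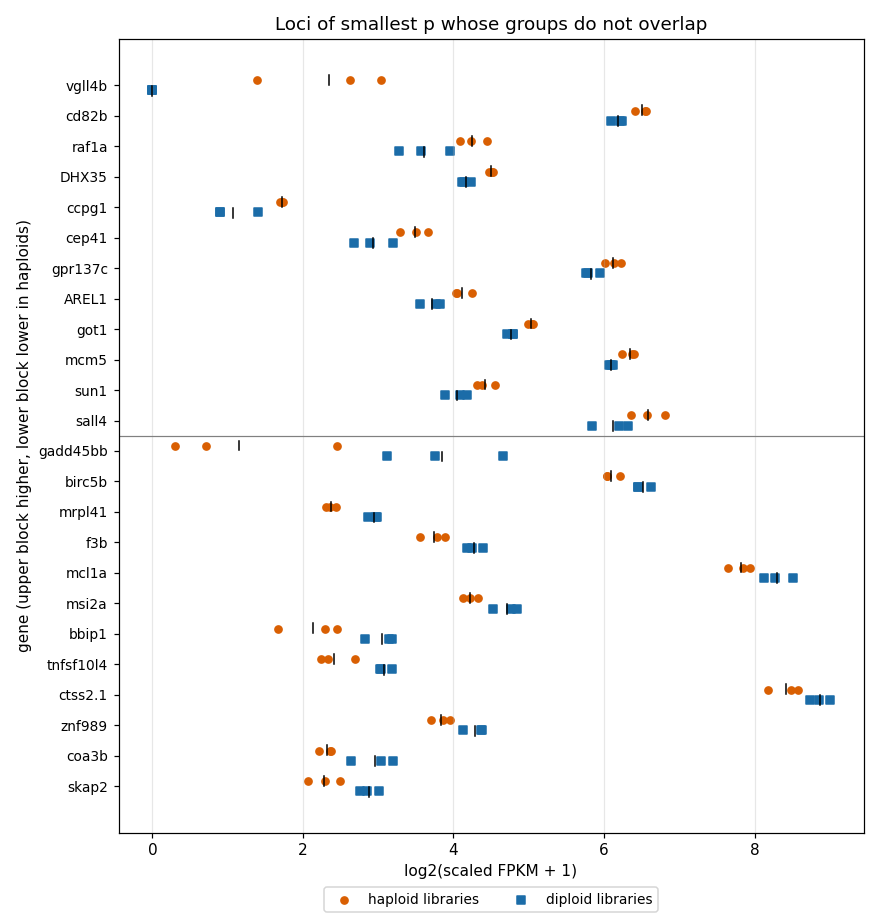
For each of the 24 loci, the 3 haploid libraries (orange circles, upper row) and the 3 diploid libraries (blue squares, lower row) are placed by log2(scaled FPKM + 1), with a black tick at each mean; the upper block is higher and the lower block lower in haploids. The groups of vgll4b and gadd45bb differ by 2.35 and −2.69 with the pseudocount of 1, and their values spread widely, while birc5b and cd82b are tight and differ by −0.42 and 0.32.

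The most abundant nuclear messages had small differences between the ploidies, though not all were measured closely. The 5 with the highest mean were cldnd, a claudin, hnrnpa0l, hnrnpabb, ccnb2 and ctsla. The RNA-binding protein gene hnrnpabb had 1769, 1890 and 1940 scaled FPKM in haploids against 1786, 1925 and 1901 in diploids. The interval was −0.23 to 0.22 for hnrnpabb and −0.26 to 0.23 for hnrnpa0l, narrow enough to leave out a difference of 0.5. cldnd varied more, with 2109, 3490 and 2557 in haploids against 1699, 3057 and 2730 in diploids. Its interval, −0.49 to 0.76, did not leave out a difference of 0.5. ankdd1a had 15.7, 18.6 and 19.1 in haploids against 14.9, 15.7 and 16.1 in diploids, with a difference of 0.18.

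No chromosome stood out. Median differences over the tested loci of the 25 chromosomes ran from −0.04 on chromosome 14 to 0.02 on chromosome 18. The mitochondrial genome, with 13 loci, had 0.16, and haploid replicate 2 was its highest library by the median deviation, at 0.43.

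Some markers of other cell layers were highest in diploid replicate 1, as klf17 and irx7 were. Of 14 yolk syncytial layer markers, 7 are in the first numbering run and 6 were above 0, and their summed scaled FPKM was 6.45, 1.25 and 1.75 in haploids against 21.2, 3.38 and 5.22 in diploids. Of this sum, mxtx2, which is itself on the early zygotic list, and the apolipoprotein gene apoeb made up most in diploid replicate 1, at 10.9 and 9.68. gata6, gata5 and slc40a1 were highest in another library. The enveloping layer regulator grhl3 had 1.33, 0.354 and 0.263 in haploids against 13.6, 0.458 and 1.32 in diploids. The keratin gene krt18 had 0.213, 0 and 0.0903 against 1.83, 0.0948 and 0.117. The part of mxtx2, apoeb, grhl3 and krt18 in the differences was not tested. Of 22 enveloping layer markers, only 6 are in the first numbering run, and 5 were above 0. Their scaled FPKM summed to 189.0, 1490 and 229.0 in haploids against 245.0, 453.0 and 777.0 in diploids, so diploid replicate 1 was the lowest diploid library. These sums followed the adhesion gene epcam, which had 171.7, 1447 and 198.6 in haploids against 210.8, 426.1 and 750.2 in diploids. Germ plasm genes, 8 of 18 in the first numbering run, summed to 620.0 to 642.0 in haploids and 580.0 to 663.0 in diploids. Of 27 late tissue markers, 13 are in the first numbering run, and their scaled FPKM summed to 2.18 to 3.66 in haploids and 2.26 to 3.95 in diploids. The other 14, among them the muscle genes myod1 and myog, are unmeasured.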

How the data were processed

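Whole-embryo libraries, 3 haploid and 3 diploid, were analysed from the gene tables the authors deposited, which give FPKM per locus. Per the submitters' processing notes, the tools were HISAT2, Cufflinks and Cuffdiff after FastQC and Trim Galore, on build GRCz10. No version, annotation or strand setting is given in the sources used here. Antisense overlap could not be assessed. A further 2 deposited tables of FPKM pooled by ploidy were not used for tests. Locus starts were shifted to count from 1.

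FPKM were scaled by median-of-ratios factors over the 6 libraries, and log2(FPKM + 1) was tested in R 4.3.3. The test was limma 3.58.1 with a trended prior variance and 4 residual degrees of freedom, with p-values adjusted by Benjamini-Hochberg at 0.05. It was checked on simulated data whose spread was below the median spread of these libraries and alike at every locus. That check does not show which differences the test could find here. Counts were not recovered from FPKM for the test, and total read depth is unknown. If the FPKM confidence bounds are read as counting error alone, they imply a number of fragments per locus. Its median over loci with a mean of at least 1 was 371, 289 and 425 in the haploid replicates. In the diploid replicates it was 269, 332 and 347. A listed 0 may be an estimate that failed. Of the tested loci, 45 belong to the second numbering run and 162 carry several symbols. At the threshold, 99 members had a mean of 1 to 1.1 and 120 loci fell just below, from 0.9 to 1.

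Replicates were numbered in accession order, and no label says that they are separate clutches, so the p-values cover only the spread among these 6 libraries, part or all of which may be technical. Loci named were up to 12 per direction, by size of difference among those passing, or else by smallest p among loci whose groups did not overlap; the highest and lowest member of each list with at least 5 tested; loci at 0 in one ploidy; the 5 most abundant; and nanog, klf17, irx7, gadd45bb, mych, chek1 and ankdd1a. Others named in lists were chosen after their values were seen, and some members are not reported here. The members, lists and rule were chosen with earlier results of these data known, and list patterns that matched unrelated symbols were corrected afterwards. A median and counts describe each list, with no test. Alternatives were 3 other scalings, 2 pseudocounts, 2 filters, 2 models of the spread, all 9 libraries, a block and leaving out each library.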

Additional observations from a re-analysis of the deposited data

How the results depend on the processing

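No locus passed under any alternative but one: without diploid replicate 1 the count was 1, the short locus of dut, with a log2 difference of 5.47 and a limma adjusted p of 0.0133, when its remaining diploid libraries are both listed at 0. Leaving out each library in turn therefore gave 0 to 1 loci. Loci without overlap numbered 405 to 510 with 6 libraries and a mean FPKM of at least 1, and 372 with one of at least 5 (4128 loci tested). They numbered 902 with no filter (14022 loci tested), and 923 to 1367 with a library left out, where fewer samples make separation easier. Loci at 10 scaled FPKM or more with an interval above −1 numbered 2942 to 4585. Rescaling to a sum raised the values, so more loci reached 10. The share of them with such an interval was 89.8% in both rescalings, against 95.5% in the main fit. Taken over all tested loci, deviations from the group means correlated at 0.239, −0.064 and −0.11 over the 3 sets. Such correlations cannot show whether the sets pair the libraries for single genes. For klf17 and irx7 the order of the replicates was the same in both ploidies. A replicate block left 0 loci called and 194 past an unadjusted p of 0.05; gadd45bb had the smallest adjusted p, 0.509. Of the differences of named genes, counted once per alternative, 1338 kept their direction and side of the threshold and 33 reversed, all but psme1 without diploid replicate 3 to values within 0.3 of 0. With FPKM rescaled over nuclear loci, hnrnpa0l was 0.014, hnrnpabb 0.026, ccnb2 0.015 and ctsla 0.007. With library weights, zic2b was −0.071, hnrnpabb 0.026, ccnb2 0.035 and ctsla 0.038. With no filter hnrnpabb was 0.002. With one library left out, the differences ran from −0.26 to 0.401 for zic2b, −0.006 to 0.325 for rps2, −0.262 to 0.369 for mt-nd1, −0.099 to 0.387 for sdhaf3, −1.601 to 1.124 for psme1 and −0.167 to 0.663 for atf4a. They ran from −0.119 to 0.308 for cldnd, −0.069 to 0.022 for hnrnpa0l, −0.037 to 0.032 for hnrnpabb, −0.091 to 0.036 for ccnb2 and −0.099 to 0.041 for ctsla. The cause was not tested. Intervals were widest at the low loci, with a median half-width of 0.588 at 1 to 2 scaled FPKM. The part of read depth in this width was not tested.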

Other observations

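Between-library spread within one ploidy was large for a few well expressed loci. Among loci with a mean of at least 10 scaled FPKM, 30 spanned 2 or more log2 units among the haploid libraries and 17 among the diploid libraries, 7 of them in both. The proteasome activator gene psme1 had 1.26, 11.8 and 1.48 scaled FPKM in haploids against 2.09, 0.177 and 50.7 in diploids. The Mediator subunit gene med11 had 44.4, 0 and 0 in haploids against 29.7, 18.4 and 0 in diploids. The extracellular matrix gene hapln4 had 2.13, 43.2 and 27.0 in haploids against 48.7, 41.4 and 120.6 in diploids. The complex I gene ndufs8b had 15.2, 0 and 20.2 in haploids against 5.99, 20.9 and 5.83 in diploids. The sterol carrier protein gene scp2b had 37.1, 1.21 and 19.3 in haploids against 18.4, 17.01 and 19.7 in diploids.

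The spread between replicates was larger among haploids than among diploids at 3313 of the 5926 loci, and haploid replicate 2 was the highest of the 6 libraries at 1492 loci and haploid replicate 3 at 620. Within the 3 library sets, the haploid library was above the diploid library in all 3 at 725 loci and below it in all 3 at 766. Together these were 25.2% of the loci, about the share in which signs drawn at random would agree.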
